A study of Mus musculus with 10 samples.

Results

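The genes described here are 9 C-type lectin receptors of macrophages, listed by symbol as Clec4d, Clec4e, Clec4n, Clec5a, Clec7a, Clec10a, Clec12a, Clec4a1 and Clec4a3. All 9 were found among the 55357 gene identifiers of each count table, and all 9 passed the filter on low counts in both tables, among 13861 genes tested in macrophages and 13718 in hearts. The macrophages were mouse peritoneal cells drawn out with thioglycolate, an irritant, kept if they adhered to the dish and exposed for 48 h to dexamethasone (100 nM), a glucocorticoid drug. Cultures came from wild-type (n = 2) or Cd163-/- (n = 2) mice, the latter without CD163, a macrophage scavenger receptor for haemoglobin bound to haptoglobin. The hearts were all labelled Cd163-/- and had received saline (n = 3) or recombinant interleukin-10 (IL-10, n = 3), an anti-inflammatory cytokine injected under the skin (50 µg/kg/day) on a schedule that began on day 0 and ended on day 27 after surgery. The series describes narrowing of the transverse aorta in male mice 8 weeks old on a C57BL/6 background, but no label says of a given heart that it was operated on, and wild-type or sham-operated hearts were not analysed here. Wild-type and Cd163-/- animals are described as littermates. No sample is stated to be a separate animal or culture, and the replicate spread behind the p-values may therefore be technical only.

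C-type lectin receptors are membrane proteins whose extracellular domain binds sugars, glycolipids or other ligands of microbes and dying cells. Mincle (Clec4e), MCL (Clec4d) and Dectin-2 (Clec4n) signal through the adaptor chain FcR-gamma (Fcer1g), MDL-1 (Clec5a) through DAP12 (Tyrobp), and Dectin-1 (Clec7a) through a motif in its own tail. These signals meet at the kinase Syk and pass through the Card9, Bcl10 and Malt1 complex to NF-kappaB and the transcription of cytokine genes, whereas MICL (Clec12a) carries an inhibitory motif that recruits phosphatases.

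Libraries held 16.7 to 18.6 M counts in macrophages and 13.5 to 14.9 M in hearts (M for mega), and mitochondrially encoded genes took 2.43% to 3.12% and 33.7% to 39.4% of them. Levels are in CPM (counts per M, on library sizes scaled by TMM), and a count of 3 corresponded to 0.149 to 0.191 CPM in macrophages and 0.192 to 0.22 CPM in hearts. Cd163 was read at 20.9 and 13.0 CPM in wild-type and 0.448 and 0.778 CPM in knockout macrophages (log2 fold change -4.79, SE 0.39; edgeR adjusted p = 0.0013, from the quasi-likelihood test that gave every adjusted p below). The hearts labelled Cd163-/- still held 2.39 to 3.65 CPM of Cd163, and the labels do not say which part of the gene was deleted. In counts these hearts held 34 to 57 of Cd163 beside 348 to 723 of the macrophage marker gene Adgre1. Wild-type macrophages held 352 and 205 of Cd163 beside 16032 and 19187 of Adgre1, so relative to Adgre1 the hearts held more. Knockout macrophages held 9 and 14 of Cd163 beside 12950 and 10777 of Adgre1. The 12 general macrophage markers summed to 25070 to 31970 CPM in the cultures and to 683.5 to 1158 CPM in the hearts. A gene was called at a Benjamini-Hochberg adjusted p under 0.05 over all tested genes of its table. In macrophages 26.4% of tested genes were called (13.1% higher and 13.3% lower in the knockout), and the groups did not overlap for 69.4%. In hearts 13.6% were called (6.86% higher and 6.7% lower after IL-10), and the groups did not overlap for 31.6%.

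Of the 9 receptor genes, 8 lie on mouse chromosome 6, which also holds Cd163, and Clec10a lies on chromosome 11. In GENCODE M21 on GRCm38, the Dectin-2 gene cluster holds Clec4a1 (122921848 to 122934619), Clec4a3 (122952515 to 122969875) and Clec4n (123229843 to 123247021), in this order. Clec4d (123262111 to 123275265) and Clec4e (123281789 to 123289870) of the same cluster come after Clec4n. Other lectin genes, Clec4a4, Clec4b1, Clec4a2 and Clec4b2, lie between Clec4a3 and Clec4n. Clec12a (129342691 to 129365303) and Clec7a (129461591 to 129472779) belong to the Dectin-1 cluster. Clec5a lies apart at 40574894 to 40585821, and Clec10a is at 70156197 to 70170834 of chromosome 11. Cd163 itself is at 124304656 to 124330527. The labels list both GRCm39 and mm10 without saying which the counts used, so these positions are those of the annotation and not of the authors' alignment.

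The promoters of the receptor genes with the largest falls in knockout macrophages are shown because Clec4e and its neighbour Clec4d fell by very different amounts. Each line gives the 250 bases before the RefSeq transcription start on GRCm38.p6, read 5′ to 3′ on the gene's own strand. Capitals mark matches to 1 of 7 short motifs searched on both strands. RefSeq promoters were matched for 7 of the 9 genes, all but Clec4n and Clec10a.
Clec4e, chr6:123289872-123290121, minus strand: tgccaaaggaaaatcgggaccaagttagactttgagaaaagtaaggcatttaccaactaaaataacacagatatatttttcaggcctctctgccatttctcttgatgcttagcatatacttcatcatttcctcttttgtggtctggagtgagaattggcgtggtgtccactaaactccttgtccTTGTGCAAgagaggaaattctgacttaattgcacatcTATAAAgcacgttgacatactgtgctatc
Clec4d, chr6:123261857-123262106, plus strand: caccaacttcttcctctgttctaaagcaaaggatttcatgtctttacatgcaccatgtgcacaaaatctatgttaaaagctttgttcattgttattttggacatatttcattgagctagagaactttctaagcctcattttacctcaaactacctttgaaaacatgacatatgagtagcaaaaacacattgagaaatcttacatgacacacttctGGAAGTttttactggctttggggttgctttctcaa
Clec5a, chr6:40585806-40586055, minus strand: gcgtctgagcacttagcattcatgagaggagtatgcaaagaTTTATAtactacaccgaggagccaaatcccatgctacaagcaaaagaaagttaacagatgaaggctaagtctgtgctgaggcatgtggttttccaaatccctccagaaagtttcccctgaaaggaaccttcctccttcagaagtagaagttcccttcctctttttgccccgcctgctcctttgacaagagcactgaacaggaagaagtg

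In the Clec4e window the capitals are a C/EBP-type match (TTGCNNAA read on the opposite strand), which begins 66 bases before the start, and a TATA box (TATAAA), which begins 29 bases before it. The Clec4d window held a PU.1-type match (GGAAGT) beginning 35 bases before the start, and the Clec5a window a TATA box letter match on the opposite strand, 209 bases before the start. Clec12a held 1 match each to the C/EBP and AP-1 (TGANTCA) letters, and the windows of Clec7a, Clec4a1 and Clec4a3 held none (for Clec7a and Clec4a3, 1 of the 2 listed starts was read). The letters searched for NF-kB, for the interferon-stimulated response element (ISRE) and for the glucocorticoid response element were in none of the 7 windows. Over 32851 RefSeq promoter windows of the same length, 9.56% held the C/EBP letters, 12.4% the TATA box, 19.7% PU.1, 6.75% AP-1, 4.65% NF-kB, 2.98% the ISRE and 0.387% the glucocorticoid element. Some of these letters can overlap each other. A match is a description of the sequence only.

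The first comparison asked how macrophages lacking CD163 differed from wild-type cells after dexamethasone. Of the 9 receptor genes, 5 were lower in the knockout, 1 was higher and 3 did not pass the test, against 26.4% of all tested genes called. Clec4e, Clec5a, Clec4d, Clec12a and Clec4n fell, Clec10a rose, and Clec7a, Clec4a1 and Clec4a3 were not called. The groups did not overlap for the 6 called genes, which were also the 6 with an unadjusted p under 0.05, against 69.4% and 41.2% of all tested genes. The median log2 fold change of the 9 was -0.78, beside 0.01 over all tested genes. Without knockout replicate 1 only 2 of the genes were lower, and without knockout replicate 2 only 3 were lower and none higher. In such fits the lone library is assumed to vary like the other group.

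Clec4e, which encodes the glycolipid receptor Mincle, was at 4369 and 5145 CPM in wild-type and at 22.7 and 39.6 CPM in knockout macrophages. Both wild-type libraries were far above both knockout libraries, and the mean was 152.8-fold higher in wild type. In raw counts this was 73536 and 80953 against 455 and 713. This was a log2 fold change of -7.26 (SE 0.40; edgeR adjusted p = 0.000562), and it lay between -7.72 and -6.91 with any 1 of the 4 libraries left out. By mean CPM, Clec4e ranked 14 of all genes in wild-type macrophages and 5372 in knockout macrophages.

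Clec4d encodes MCL, which pairs with Mincle and helps bring it to the cell surface, and its gene lies next to Clec4e. It was at 1441 and 1035 CPM in wild-type and 372.7 and 445.9 CPM in knockout macrophages. The groups did not overlap, and the level was 3.02-fold higher in wild type. On the log2 scale the change was -1.60 (SE 0.22; edgeR adjusted p = 0.00633). The call was lost without knockout replicate 1 (edgeR adjusted p = 0.0859) or knockout replicate 2 (0.05003), with log2 fold changes of -1.47 and -1.74.

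Clec4n, the gene of the mannan receptor Dectin-2, was at 36.8 and 37.1 CPM in wild-type and 18.5 and 24.6 CPM in knockout macrophages. The wild-type libraries were nearly equal and both above the knockout. The log2 fold change was -0.78 (SE 0.17; edgeR adjusted p = 0.022), and the call was lost without knockout replicate 1 (edgeR adjusted p = 0.117).

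Clec5a, the gene of the DAP12-coupled receptor MDL-1, was at 206.1 and 143.1 CPM in wild-type and 28.6 and 26.1 CPM in knockout macrophages. This was the second largest fall of the 9, with wild type 6.38-fold higher and no overlap of the groups. On the log2 scale the change was -2.67 (SE 0.20; edgeR adjusted p = 0.00116), and between -2.92 and -2.39 with 1 library left out, called each time.

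Clec7a, the gene of the beta-glucan receptor Dectin-1, was at 633.3 and 315.6 CPM in wild-type and 564 and 736 CPM in knockout macrophages. The wild-type libraries stood 2.01-fold apart and the groups overlapped. The difference did not pass the test (log2 0.45, SE 0.34; edgeR adjusted p = 0.357). It did without wild-type replicate 1 (log2 1.04, edgeR adjusted p = 0.00582) and with no filter on low counts (edgeR adjusted p = 0.0451), and was 0.03 in the lowest of the fits with 1 library left out.

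Clec12a, the gene of the inhibitory receptor MICL, was at 446.2 and 412.4 CPM in wild-type and 219.9 and 243.5 CPM in knockout macrophages. The replicates lay close together and the groups apart. The log2 fold change was -0.89 (SE 0.14; edgeR adjusted p = 0.00865), and the call was lost without knockout replicate 1 (edgeR adjusted p = 0.104) or 2 (0.0612).

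Clec4a1 and Clec4a3 encode the receptors DCIR4 and DCIR3 of the same cluster as Clec4e. Clec4a1 was at 182.6 and 259.6 CPM in wild-type and 124.9 and 188.9 CPM in knockout macrophages. Clec4a3 was at 45.1 and 66.8 against 46.9 and 84.1 CPM. The groups overlapped for both, and neither log2 fold change, -0.50 (SE 0.25) and 0.23 (SE 0.31), was called (edgeR adjusted p = 0.198 and 0.623). Clec4a1 passed without wild-type replicate 1 (log2 -0.73, edgeR adjusted p = 0.0426) and with no filter (edgeR adjusted p = 0.0136). The DCIR genes are near copies of each other, so reads can be divided between them and the single values are less certain.

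Clec10a, which encodes the galactose-binding receptor MGL1, a marker of alternatively activated macrophages, was the 1 receptor gene that rose. It was at 2.08 and 0.508 CPM (35 and 8 counts) in wild-type and 9.62 and 18.9 CPM (193 and 341 counts) in knockout macrophages. Both knockout libraries were higher, on a low level in all 4. Its log2 fold change was 3.44 (SE 0.60; edgeR adjusted p = 0.0125), and the call was lost without knockout replicate 2 (log2 2.86, edgeR adjusted p = 0.0703). Clec10a has a close copy, Mgl2, which held at most 0.222 CPM in any macrophage library.

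**Figure D1:**
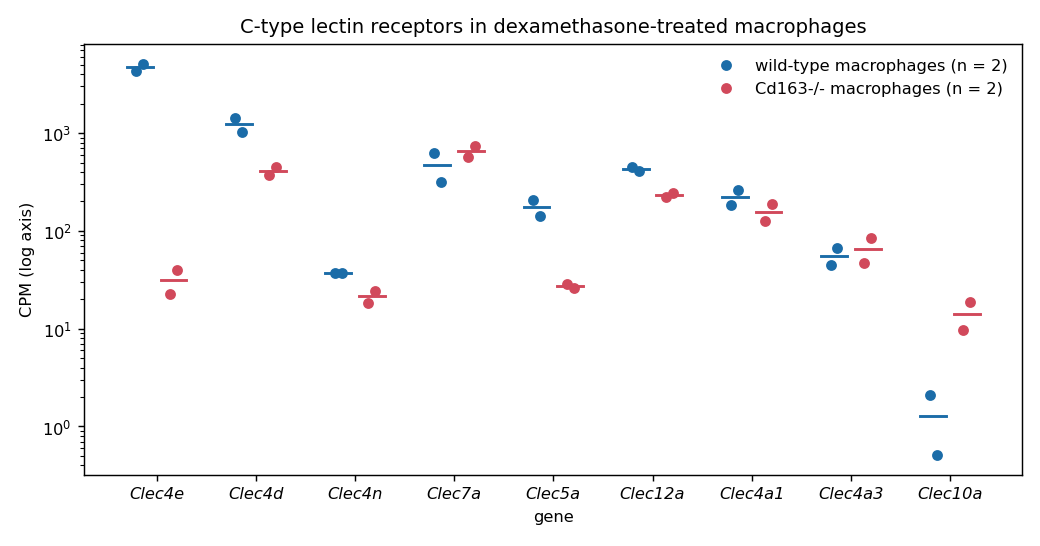
CPM of the 9 receptor genes (log axis) in each library of wild-type (blue, n = 2) and Cd163-/- (red, n = 2) macrophages, with bars at the group means. Clec4e falls from 4369 and 5145 to 22.7 and 39.6 CPM, while the points of Clec7a, Clec4a1 and Clec4a3 overlap between the genotypes.

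Per kilobase of exon, the order of the genes differed between the genotypes. In wild-type macrophages Clec4e (958 CPM per kb) and Clec4d (774.2) stood highest and did not differ beyond the spread of their libraries. They were followed by Clec7a (179.8) and Clec4a1 (141.9), which overlapped, then Clec12a (77.7), Clec5a (45.5) and Clec4a3 (42.2), of which the last 2 overlapped, then Clec4n (26.0) and Clec10a (0.446). In knockout macrophages Clec4d (256) and Clec7a (246.4) stood highest and overlapped, Clec4a1 followed at 100.7, and Clec4a3 (49.4) overlapped with Clec12a (41.9). Clec4n was at 15.2 CPM per kb, and Clec5a (7.12), Clec4e (6.27) and Clec10a (4.93) came last, each overlapping the next. Clec4e thus went from the highest genes of the 9 to the lowest, though its exact place was not resolved in either genotype. Lengths are those of all annotated exons, which can exceed the transcript the cells made.

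The genes downstream of these receptors were taken from a list of 19 adaptors, kinases and phosphatases. Of the 19, all tested, 10 were lower in knockout macrophages, 1 was higher and 8 did not pass, against 26.4% of all tested genes called, with a median log2 fold change of -0.62 beside 0.01 over all genes. Malt1, the paracaspase of the Card9 complex, was at 503.6 and 506.2 CPM in wild-type and 26.5 and 30.9 CPM in knockout macrophages (log2 -4.14, SE 0.16; edgeR adjusted p = 0.000397). Syk, the kinase that the activating receptors share, was at 1044 and 1016 against 308.2 and 398.9 CPM (log2 -1.54). Lyn, a kinase of the Src family, fell by 0.93 on the log2 scale, and Prkcd, the protein kinase C that activates Card9, fell by 1.17. Inpp5d, the inositol phosphatase SHIP-1, which restrains such signals, rose from 120 and 107.8 to 258.1 and 278.4 CPM (log2 1.24). Fcer1g, the adaptor of Mincle, MCL and Dectin-2, fell by 0.62 on the log2 scale (edgeR adjusted p = 0.0425). Tyrobp, the adaptor of MDL-1, had a log2 fold change of 0.01 and Card9 one of 0.04, and neither passed the test (edgeR adjusted p = 0.981 and 0.848). Without knockout replicate 1 only 3 of the 19 were lower, and without knockout replicate 2 only 5.

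**Figure D2:**
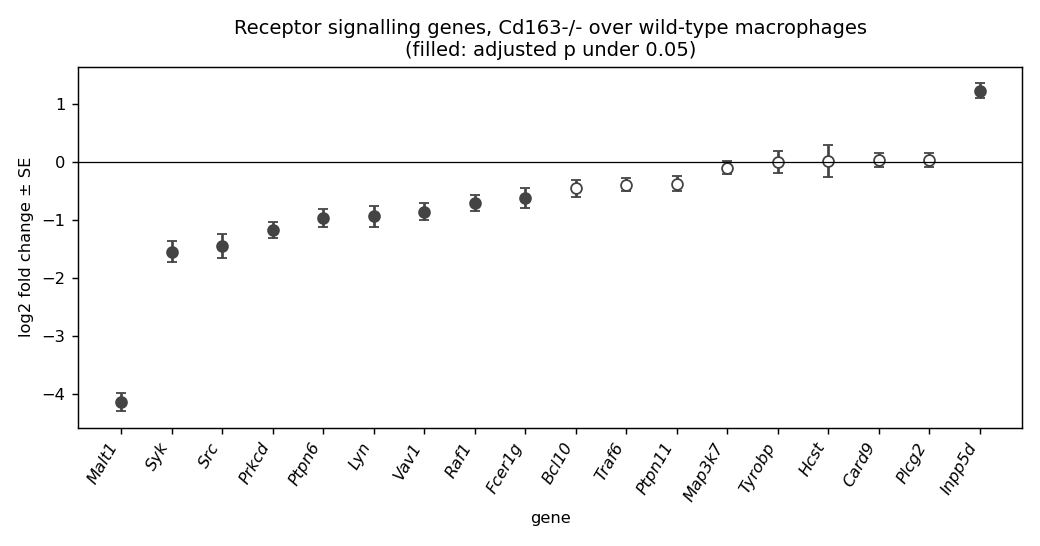
Log2 fold change ± SE of 18 of the 19 receptor signalling genes, Cd163-/- over wild-type macrophages (n = 2 each), ordered by size, with filled points for an adjusted p under 0.05. Malt1 stands lowest at -4.14 and Inpp5d highest at 1.24, and 8 genes, Card9 and Tyrobp among them, have open points.

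Cytokine and enzyme genes that these receptors can induce, and that Toll-like receptors induce as well, were lower in the knockout for 13 of 14 tested genes, against 13.3% of all tested genes lower. Their median log2 fold change was -7.45, or -6.3 with the 2 genes that had no count in the knockout set at their bound, beside 0.01 over all genes. Tnf was at 2453 and 1874 CPM in wild-type and 8.77 and 12.9 CPM in knockout macrophages (log2 -7.64), and Cxcl2, a neutrophil-attracting chemokine, at 1183 and 982.3 against 2.69 and 7.00 CPM (log2 -7.81). Cxcl1 and Il12b fell by 7.26 and 10.08 on the log2 scale, and Il1b, the interleukin-1 beta gene, fell by 10.7. Ccl2, a monocyte-attracting chemokine, had a log2 fold change of -3.56. Csf2 held 57 and 25 counts in wild-type and 0 in knockout macrophages, at least 32-fold lower against 3 counts over the group. Nos2, the inducible nitric oxide synthase, was the gene that was not called. It was at 1.25 and 106.8 CPM in the wild-type libraries and at 0 in the knockout. The wild-type cultures thus differed from each other in part of this list, and Il10 itself was at 11.8 and 62.5 CPM in them. Cd14, the lipopolysaccharide co-receptor, was at 726.6 and 966.9 against 77.4 and 90.6 CPM (log2 -3.33). The labels name no stimulus of either genotype other than thioglycolate and dexamethasone. High Clec4e and high levels of these genes stood in the same wild-type libraries. Whether the state that these genes mark had a part in the levels of the lectin receptors was not tested.

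Other C-type lectin genes moved both ways. Of 32 listed, 14 were tested in macrophages, of which 5 were lower, 3 higher and 6 not called, against 13.3% of all tested genes lower and 13.1% higher, with a median log2 fold change of 0.08 beside 0.01 over all genes. Cd69, an early activation antigen, was at 23.9 and 24.3 CPM in wild-type and 0.299 and 0.445 CPM in knockout macrophages (log2 -6.00). Olr1, the oxidised lipoprotein receptor LOX-1, Ly75, the endocytic receptor DEC-205, and Cd302 fell by 3.16, 2.36 and 2.00 on the log2 scale. Mrc1, the mannose receptor of alternatively activated and resident macrophages, rose from 268.6 and 158 to 771.7 and 676.4 CPM (log2 1.76), and its relative Mrc2, a collagen receptor of fibroblasts, from 4.84 ± 0.62 to 22.2 ± 5.13 CPM (SD, n = 2 each). Without knockout replicate 1 only 1 of the 14 was higher. Clec4a2, the DCIR gene of the same cluster as Clec4e, had a log2 fold change of -0.34 and did not pass (edgeR adjusted p = 0.233).

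Markers of other cells moved with the genotype as well, beside 13.1% of all tested genes higher and 13.3% lower in the knockout. The 5 mesothelial markers summed to 80.5 to 114.8 CPM in wild-type and 213.2 to 257.9 CPM in knockout cultures, and 3 of the 5 tested were called higher. The 5 fibroblast markers summed to 914.1 to 1397 and 1630 to 1846 CPM, with 2 of 4 tested higher and 1 lower. Neutrophils also express Clec4d and Clec4e, and the 10 neutrophil markers summed to 192 to 353.1 CPM in wild-type and 107.4 to 162.8 CPM in knockout cultures. Nearly all of this was Csf3r and Mmp8. Of the 4 tested neutrophil markers 3 were lower in the knockout and 1, Mmp8, was higher. S100a8 was at 8.56 and 20.9 CPM in wild-type and 2.74 and 2.17 CPM in knockout cultures (log2 -2.58), Csf3r had a log2 fold change of -1.71, and Camp was at 0.653 and 0.89 CPM in wild type and at 0 counts in the knockout. The other 6 did not pass the filter on low counts, among them S100a9, at 0 in both wild-type libraries and at most 0.0556 CPM in the knockout, and Ly6g, at most 0.0594 CPM in any library. Of the 12 general macrophage markers, 2 were higher (the complement genes C1qa and C1qc), 2 lower (Adgre1, which encodes F4/80, log2 -0.80, and Cd14) and 8 not called. Csf1r and Cd68 had log2 fold changes of -0.52 and 0.15 and did not pass (edgeR adjusted p = 0.133 and 0.656). Resident macrophage markers summed to 291.1 to 459 CPM in wild-type and 1345 to 1505 CPM in knockout cultures. Most of that sum was Mrc1 and F13a1, both called higher. Of the 7 resident markers, 4 were higher and 2 lower, Timd4 and Cd163, the latter being the gene targeted in the knockout. The 8 monocyte and recruited macrophage markers summed to 6223 to 6834 and 8402 to 8733 CPM. Nearly all of that sum was Fn1 and Spp1, neither of which was called. Chil3 was the 1 called higher (log2 1.62). Ly6c2 was the 1 called lower, from 12.0 and 35.0 CPM in wild-type to 0.15 and 0.44 CPM in knockout cultures. The part of these cells or states in the receptor levels was not tested.

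Since the Dectin-2 cluster and Cd163 are neighbours, the tested genes within 2 Mb of Cd163 on either side were counted. Clec4e, Clec4d and Clec4n lay 1.01, 1.03 and 1.06 Mb from Cd163, and none of the 25 annotated genes between Clec4e and Cd163 passed the filter on low counts. Of 62 tested genes in the window 14 were lower and 8 higher, 35.5% called, and without the 5 receptor genes in it 33.3% of 57 were called. Over the whole chromosome 29.1% of 691 tested genes were called, and 26.4% over all chromosomes. Pex5, the tested gene nearest to Cd163 at 0.0663 Mb, had a log2 fold change of -0.11 and did not pass (edgeR adjusted p = 0.562). Apobec1, higher at 541.6 against 179 CPM, and Tapbpl, lower at 15.9 against 46.7 CPM, were among the called genes of the window, named here after their values were seen. The window held 2 lower and 0 higher genes without knockout replicate 1, 6 and 4 without knockout replicate 2, and 19 and 13 without wild-type replicate 1.

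The second comparison asked whether these receptors differed between IL-10 and saline in Cd163-/- hearts. None of the 9 genes was called in either direction (edgeR quasi-likelihood test), against 13.6% of all tested genes, and the groups overlapped for all 9, against 31.6% of tested genes without overlap. At an unadjusted p under 0.05 there was 1, Clec12a, against 28.3% of all tested genes, and DESeq2 and limma-voom also called 0. The median log2 fold change of the 9 was 0.02, beside -0.01 over all genes. Levels were low, from 0.51 to 10.4 CPM in any heart and from 7 to 162 counts. In a whole heart, fewer cells of a type and less RNA per cell cannot be told apart.

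Clec4e was at 2.93, 0.51 and 1.09 CPM in the 3 saline hearts and 0.69, 0.735 and 1.48 CPM in the IL-10 hearts. Saline replicate 1 was highest and the other hearts overlapped. The log2 fold change was -0.63 (SE 0.54; edgeR adjusted p = 0.482), and it turned to 0.26 without saline replicate 1. Clec4d was at 2.56, 1.24 and 1.86 CPM after saline and 1.66, 3.67 and 4.36 CPM after IL-10. Of the IL-10 hearts 2 lay above all saline hearts and replicate 1 among them (log2 0.77, SE 0.37; edgeR adjusted p = 0.183). Clec4n was at 5.78, 4.01 and 8.07 CPM against 5.18, 6.54 and 6.47 CPM, with the IL-10 hearts inside the saline range (log2 0.02, SE 0.24; edgeR adjusted p = 0.973). The sign of its difference changed with the scaling, to -0.03 by upper quartile and -0.05 by library size alone.

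Clec7a was at 3.37, 0.875 and 2.82 CPM after saline and 3.38, 3.60 and 3.30 CPM after IL-10. Saline replicate 2 was low and the other 5 hearts lay close together (log2 0.54, SE 0.36; edgeR adjusted p = 0.355). Clec5a was at 4.54, 3.72 and 3.27 CPM against 2.76, 4.33 and 4.64 CPM, with overlapping groups (log2 0.03, SE 0.26; edgeR adjusted p = 0.96), and -0.02 by upper quartile and -0.04 by library size. The inhibitory receptor gene Clec12a was at 7.54, 3.86 and 10.4 CPM after saline and 3.66, 4.92 and 4.57 CPM after IL-10. Saline replicate 2 lay among the IL-10 hearts and the other saline hearts above them all. The log2 fold change was -0.74 (SE 0.29; edgeR adjusted p = 0.101), and it passed without saline replicate 2 (log2 -1.03, edgeR adjusted p = 0.00655) and with no filter (log2 -0.73, edgeR adjusted p = 0.0139).

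Clec4a1 was at 6.88, 4.67 and 7.05 CPM after saline and 7.53, 6.24 and 8.86 CPM after IL-10 (log2 0.28, SE 0.21), and Clec4a3 at 7.39, 4.45 and 7.11 against 5.38, 6.83 and 4.78 CPM (log2 -0.16, SE 0.23). Clec10a was at 1.68, 1.75 and 3.65 CPM against 3.04, 1.98 and 2.04 CPM (log2 -0.02, SE 0.35). The groups overlapped for these 3 genes, and none passed the test (edgeR adjusted p = 0.411, 0.696 and 0.983). Saline replicate 2 had the lowest value of the saline hearts for 7 of the 9 genes, all but Clec5a and Clec10a, and its general macrophage markers summed to 683.5 CPM, the lowest of the 6 hearts.

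**Figure D3:**
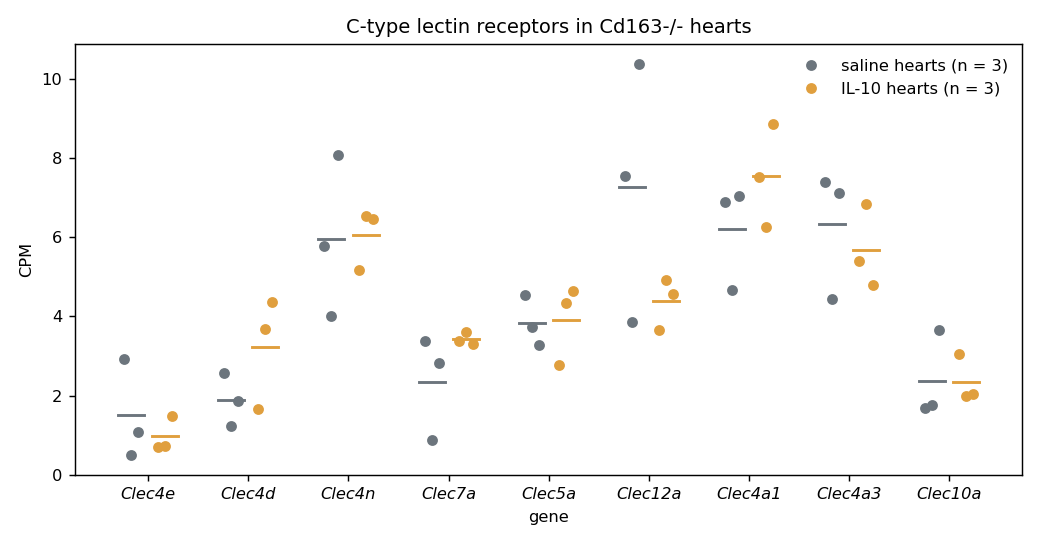
CPM of the 9 receptor genes in each of the 6 Cd163-/- hearts after saline (grey, n = 3) or IL-10 (yellow, n = 3), with bars at the group means. The groups overlap for every gene, and the widest spread is that of Clec12a in saline hearts, from 3.86 to 10.4 CPM.

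To set the receptors beside other macrophage genes of the same hearts, each receptor's log2 CPM was set against the mean log2 CPM of 12 general macrophage markers in the same heart, which summed to 683.5 to 1158 CPM after saline and 956.2 to 1066 after IL-10. The median difference between the groups over the 9 genes was 0.07. With 3 hearts against 3 the exact permutation test cannot go below p = 0.1, so no difference could pass. Clec12a was lower by 0.60 on the log2 scale relative to these markers (-2.85 ± 0.17 against -2.25 ± 0.34, SD, n = 3 each), with p = 0.1 by the exact two-sided permutation test and 0.45 after adjustment over the 9 genes. Clec4a1 was higher by 0.30 (-2.09 ± 0.21 against -2.39 ± 0.07), with the same p by the exact test. The other 7 had p from 0.2 to 1.

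Cell markers in the hearts moved as follows, beside 6.86% of all tested genes higher and 6.7% lower after IL-10. Of 12 general macrophage markers 1, Cd68, was lower after IL-10, and 11 were not called. Of 8 markers of monocytes and recruited macrophages 4 were lower, and all 8 summed to 263.2 to 481.4 CPM after saline and 108.9 to 206.3 after IL-10. Of 7 markers of resident macrophages 4 were higher, and all 7 summed to 218.4 to 278.9 and 285.3 to 403.6 CPM. The 10 neutrophil markers summed to 7.30 to 10.2 and 6.28 to 11.5 CPM, with none of the 3 tested called, and none of the 6 tested dendritic cell markers was called. The part of either macrophage list in the receptor levels was not tested.

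Of the 19 signalling genes 18 were tested in hearts, of which 2 were lower after IL-10, 0 higher and 16 not called, a share near the 13.6% of all tested genes called, with a median log2 fold change of -0.18 beside -0.01 over all genes. Plcg2, the phospholipase that acts after Syk, was at 15.02 to 17.04 CPM in the saline hearts and 8.74 to 11.8 CPM in the IL-10 hearts (log2 -0.62, SE 0.15; edgeR adjusted p = 0.0118). Malt1 was at 9.08, 8.68 and 7.56 against 6.83, 4.99 and 4.64 CPM (log2 -0.62, SE 0.20; edgeR adjusted p = 0.0488). The groups did not overlap for either. The count was 1 without saline replicate 1 or IL-10 replicate 3, and 0 without saline replicate 3 or IL-10 replicate 2. Of 14 output genes 7 were tested, and 1, Cxcl1, was higher after IL-10, against 6.86% of all tested genes (log2 1.11, edgeR adjusted p = 0.0413). The IL-10 hearts overlapped the saline hearts, and the count was 0 with any 1 heart left out except IL-10 replicate 1, without which it was 2.

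Among other C-type lectins, 15 of 32 were tested in hearts, of which 2 were higher, 2 lower and 11 not called, against 6.86% of all tested genes higher and 6.7% lower, with a median log2 fold change of 0.11 beside -0.01 over all genes. Mgl2, the close copy of Clec10a, rose from 10.7, 14.8 and 9.68 CPM to 27.8, 32.8 and 35.6 CPM (log2 1.45, SE 0.16; edgeR adjusted p = 3.8e-05). All IL-10 hearts were above all saline hearts, while Clec10a itself had a log2 fold change of -0.02, and reads could be divided between these copies. Clec3b, the secreted protein tetranectin, rose from 15.4, 15.8 and 14.2 to 50.8, 38.0 and 37.3 CPM (log2 1.47). Mrc2, the collagen receptor of fibroblasts, and Clec11a, a secreted growth factor, fell by 0.85 and 0.96 on the log2 scale. Leaving out a heart other than saline replicate 2 or IL-10 replicate 1 reduced the lower genes to 1. Mgl2 and Clec3b stood at or near 0 in macrophages, with at most 0.222 and 0.178 CPM in a library.

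**Figure D4:**
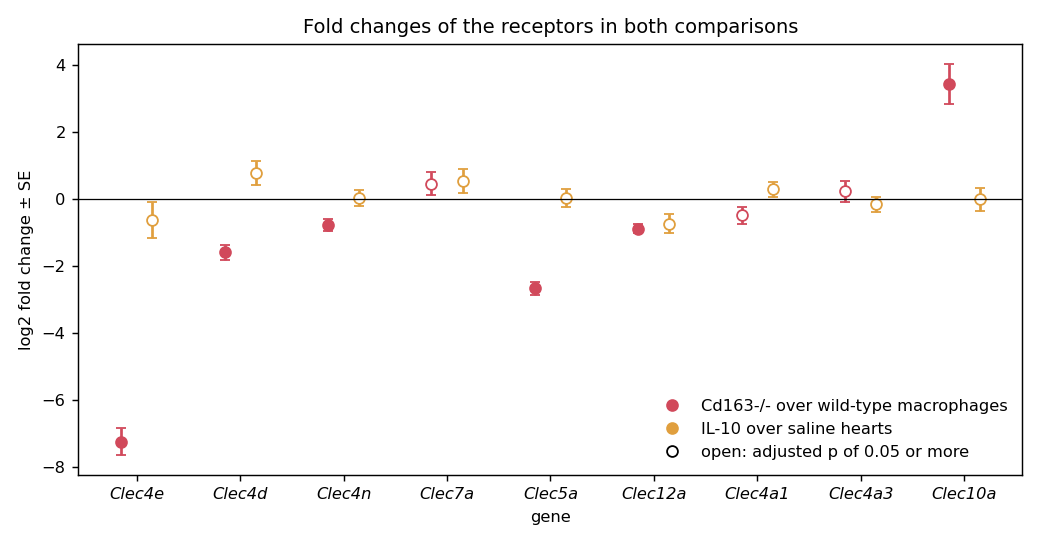
Log2 fold change ± SE of each receptor gene for Cd163-/- over wild-type macrophages (red, n = 2 each) and IL-10 over saline hearts (yellow, n = 3 each), with open points for an adjusted p of 0.05 or more. All 9 heart points are open and lie between -0.74 and 0.77, and the macrophage points run from -7.26 for Clec4e to 3.44 for Clec10a.

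To set hearts beside cultured cells, reads of each receptor were counted per 100 Adgre1 reads of the same library, with no test between the tables. Clec4e was at 422 to 459 reads per 100 Adgre1 reads in wild-type macrophages, 3.51 to 6.62 in knockout macrophages, 2.01 to 8.32 in saline hearts and 1.81 to 3.68 in IL-10 hearts. The wild-type cultures stood far above the other 3 groups, which overlapped. Clec4d was at 84.9 to 151 and 57.8 to 74.5 in wild-type and knockout macrophages and at 4.01 to 10.9 over all hearts, so that both cultures were above every heart. Clec7a was likewise at 25.9 to 123 in the cultures and 3.45 to 10.6 in the hearts. Clec4n went the other way, at 2.86 to 4.1 in the cultures and 13.6 to 19.3 in the hearts, as did Clec10a, at 0.0417 to 3.16 and 4.78 to 7.99. Clec4a1 had about the same ratio everywhere, from 15.2 to 31.5. In this ratio Clec5a was at 4.35 to 4.44 in knockout macrophages, below every other library, and Clec12a at 34.1 to 40.7, inside the wild-type range of 33.8 to 46.9. Clec4n, at 2.86 to 4.1 in knockout and 3.04 to 3.86 in wild-type macrophages, also overlapped between the genotypes in this ratio, although its CPM and that of Clec12a did not. Adgre1 itself was lower in knockout macrophages, and heart cells other than macrophages may add reads to either gene.

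**Figure D5:**
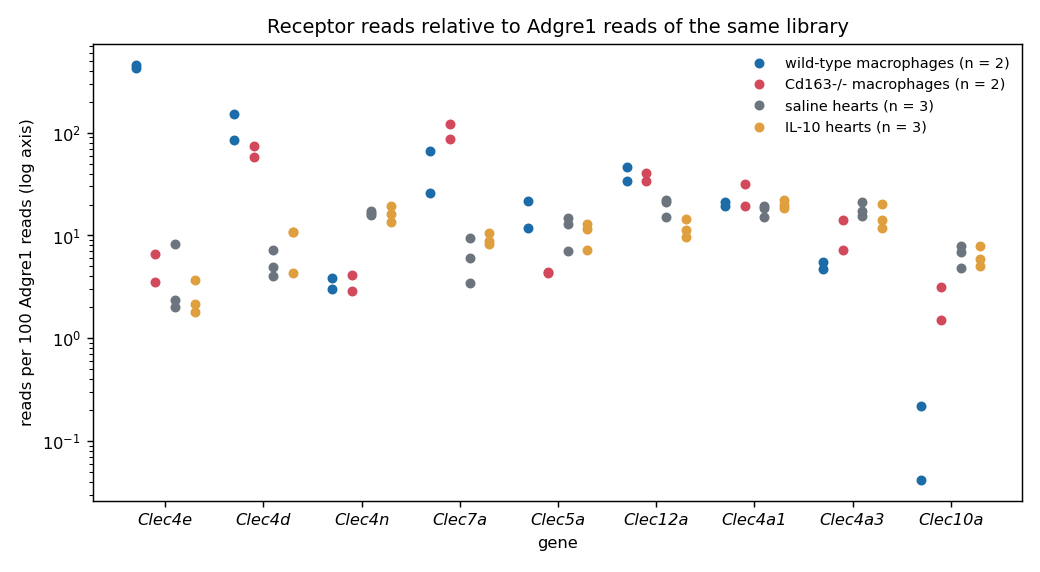
Reads of each receptor gene per 100 Adgre1 reads of the same library (log axis) in wild-type and Cd163-/- macrophages (n = 2 each) and in saline and IL-10 hearts (n = 3 each), 1 point per library. Clec4e in wild-type macrophages is the highest at 422 and 459, and Clec10a in wild-type macrophages the lowest at 0.0417 and 0.218.

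In hearts, per kilobase of exon, Clec4a3 (4.76 CPM per kb), Clec4n (4.19) and Clec4a1 (3.98) stood highest after saline, in overlapping ranges, and above the other 6, which ran from Clec12a at 1.31 down to Clec4e at 0.304 with every neighbour overlapping. After IL-10 the same 3 genes were at 4.84 (Clec4a1), 4.27 (Clec4a3) and 4.27 (Clec4n), and Clec4e was lowest at 0.195, below the range of its neighbour Clec12a.

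The genes whose profile over the 6 hearts was nearest to the mean profile of the 9 receptors were Fcer1g, Cd53, Rbm47, Fcgr3 and Btk, with root mean square differences of 0.06 to 0.08 on the log2 scale, each profile centred on its mean. None of the 5 was called after IL-10. This follows from their choice, since the mean profile itself overlapped between the groups. Over the 4 macrophage libraries the nearest were Cdc14a, Il20rb, Hectd2, Ly9 and St18, at 0.04 to 0.06. That mean profile joins genes that moved by very different amounts, so the measure was also taken for Clec4e alone, a choice made after its values were seen. The nearest to it were H2-M2, Hcar2, Cxcl1, Tnf and Il1a, with differences of 0.16 to 0.35 and log2 fold changes of -7.43, -7.65, -7.26, -7.64 and -7.09. With 4 libraries in 2 groups, any gene that falls by a like amount comes near.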

How the data were processed

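Gene counts of 6 heart and 4 macrophage libraries were deposited as 2 tables. Per the submitters' processing notes, the authors aligned reads with HISAT2 (version 2.2.1) and made the deposited counts per gene with featureCounts. Per the labels' protocols, poly(A) libraries were made with a NEBNext Ultra kit, the strand setting of the counting is not given in the sources used here, and the RNA extraction is described for livers, whereas these samples are labelled hearts and macrophages. All columns had a sample, and 52081 of 55357 identifiers were given a symbol from a reference list of gene names. Gene positions and exon lengths were taken from GENCODE M21.

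Each table was fitted alone in R 4.3.3 with edgeR 4.0.16 (filterByExpr with minimum count 10 and total 15, TMM, quasi-likelihood test, Benjamini-Hochberg over all tested genes, threshold 0.05). The SE of a log2 fold change is its size over the root of the F statistic. Log2 CPM used a prior count of 2. The members and lists were chosen with earlier results of these data known, and no test was run on a list. Named genes are the 9 receptors, Cd163, macrophage markers Adgre1, Csf1r and Cd68, up to 6 called genes with the smallest p per list, and the 5 nearest patterns; 1 gene that this rule names is counted in its list but not reported here. Others named for a role, a marker list or a position were chosen after their values were seen. Both builds, GRCm39 and mm10, are listed. Alternatives included other scalings and filters, DESeq2 1.42.0, limma-voom (limma 3.58.1), a replicate block and leaving out each library. The scripts were checked on simulated counts.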

Additional observations from a re-analysis of the deposited data

How the results depend on the processing

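The call of Clec4e, Clec5a and Cd163 in macrophages held under every alternative run, and no called receptor changed direction. With 1 library left out, receptors lower in knockout macrophages numbered 2 to 6 and higher ones 0 to 2 (main 5 and 1; 2 higher with no filter), and in hearts lower ones 0 to 1 (main 0; 1 with no filter). Of the other lists, signalling genes lower in macrophages numbered 3 to 10 (main 10), other lectins higher 1 to 4 (main 3; 5 by upper-quartile scaling and 5 by library size alone), and genes near Cd163 0 to 13 higher and 2 to 19 lower (main 8 and 14; 13 higher with no filter). In hearts signalling genes lower numbered 0 to 2 (main 2; 1 with DESeq2 size factors and 1 in the DESeq2 Wald test), other lectins lower 1 to 2 (main 2; 1 in limma-voom) and output genes higher 0 to 2 (main 1; 0 by upper quartile, library size or limma-voom, 2 with no filter). Output genes lower numbered 1 by upper quartile or with no filter (main 0). The cause was not tested.

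Signs of uncalled receptors turned in some settings. With 1 heart left out, Clec4e lay between -1.055 and 0.255 (above 0 without saline replicate 1), Clec4n between -0.197 and 0.313, Clec5a between -0.102 and 0.236 and Clec10a between -0.235 and 0.463. By upper-quartile scaling and by library size Clec4n was at -0.0292 and -0.0524 and Clec5a at -0.021 and -0.0393. Clec10a was at 0.039 in limma-voom and 0.0345 with the replicate block. In macrophages Clec4a3 lay between -0.266 and 0.59 with 1 library left out, below 0 without wild-type replicate 1 or knockout replicate 2.

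All called genes numbered 1860 in hearts (897 to 1968 with 1 library left out) and 3663 in macrophages (734 to 3811; 734 without knockout replicate 1, 1305 without knockout replicate 2). Higher genes made up 50.6% of calls in hearts, 39% by upper quartile and 35.6% by library size, and 49.6%, 62.2% and 68.6% in macrophages, where these scalings moved the median of all genes to 0.125 and 0.188. Replicate numbers showed no pairing of the hearts. Deviations of same-numbered hearts correlated over genes at -0.179, 0.0421 and 0.0034, and no heart correlated best with its own number. With the replicate block 1523 genes were called in hearts and 2656 in macrophages, signalling genes lower in hearts numbered 1 and output genes higher 0, and no call of a receptor changed. Same-numbered macrophage libraries correlated at -0.113 and crossed ones at 0.113. With 2 libraries per group these values are equal in size by construction, so they cannot settle whether the numbers pair the cultures. The crossed pairing, chosen after the data were seen, called 4595 genes, with 13 higher near Cd163. Relative to macrophage markers, the median difference over the receptors was 0.0174 to 0.187 with 1 heart left out, and -0.0492 relative to Adgre1 alone.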
